A study of Homo sapiens with 6 samples.

Results

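The genes examined were the expressed members of the ZNF zinc finger family in KNS42 cells, an established line that came from a pediatric glioblastoma (GBM). A gene was taken when it was annotated as protein-coding, its symbol was ZNF followed by a number and at most 1 letter, and its mean over the 6 libraries reached 3 FPKM (reads scaled to gene length and library size). Of the 58174 genes in the table, 157 met this rule. They were 157 of the 510 protein-coding genes with such a symbol, and 24 of the 510 were listed at 0 in every library. The members were thus selected on their mean level, which is given here as a description only. Just inside the limit lay ZNF75D at 3.02 FPKM and ZNF749 at 3.05 FPKM, and just outside it lay ZNF140 at 2.90 FPKM and ZNF592 at 2.89 FPKM.

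Most ZNF proteins carry tandem C2H2 fingers, short loops in which a pair of cysteines and a pair of histidines hold a zinc ion and in which a few residues contact DNA bases. Many also carry a KRAB box, which binds the corepressor TRIM28 and through it brings the histone methyltransferase SETDB1 and HP1 proteins to DNA, best known for silencing retroelements and imprinted loci. Others carry a SCAN domain, which lets such proteins dimerize, or act outside transcription in ribosome assembly, splicing or mitosis. In the human genome many KRAB genes lie side by side in clusters on chromosome 19.

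KNS42 cells were transfected with a pool of siRNAs targeting MSI1 (siMSI1) or with a control siRNA (siC) and harvested 72 h later, with 3 polyA RNA libraries per group. MSI1 encodes Musashi1, an RNA-binding protein of neural stem and glioma cells, and the comparison asks how its loss changes mRNA abundance. Nothing states that the libraries came from separate cultures, so p-values measure the spread between these samples, which may be technical. In bulk RNA, fewer cells of a type and less RNA per cell cannot be told apart.

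The libraries held 13087025 to 18024080 reads on genes. MSI1 itself had siC values of 63.7, 61.9 and 66.9 FPKM and siMSI1 values of 12.1, 12.3 and 11.2 FPKM, which matched the labels (log2 fold change −2.43). Of 8 glial and glioma markers, VIM, NES, SOX2, CD44, FABP7 and NOTCH2 were expressed in every library, GFAP was low at 1.33 to 5.04 FPKM and S100B was at 0. CD44 and FABP7 were called lower and GFAP higher in siMSI1. FABP7 and GFAP kept the call in all 18 alternative fits described below, and CD44 in 12 of the 18. The part of these marker changes in the values below was not tested. Each of the 5 immune, 4 endothelial and 4 epithelial markers stayed at or under 0.509 FPKM in every library and the neuronal RBFOX3 was at 0, while the neuronal SYT1 reached 3.19 to 4.32 FPKM.

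The KRAB A box was read from the coding sequence of the genes below, since it sorts the members into the main classes compared. They are the KRAB members that passed the threshold (ZNF789 and ZNF227) and those with the highest FPKM (ZNF436 and ZNF282). Each run is genomic sequence of GRCh38, 5′ to 3′ on the coding strand, and capitals mark the codons of the 9 residues searched, F, D, V, A, F, E, E, W and L of the box.
ZNF789, chr7:99479673-99479720, plus strand: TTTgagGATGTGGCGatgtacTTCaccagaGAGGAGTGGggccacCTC
ZNF436, chr1:23367109-23367156, minus strand: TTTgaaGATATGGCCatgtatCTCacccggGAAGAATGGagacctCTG
ZNF282, chr7:149206708-149206755, plus strand: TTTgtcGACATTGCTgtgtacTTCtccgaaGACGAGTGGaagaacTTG
ZNF227, chr19:44228458-44228505, plus strand: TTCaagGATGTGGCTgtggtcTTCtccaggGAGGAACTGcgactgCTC
The translated box of ZNF789 matched all 9 letters, that of ZNF227 differed at 1, and those of ZNF436 and ZNF282 differed at 2, the most that was allowed.

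The first finger is shown for 6 of the changed genes, since this repeated unit defines the family. Capitals mark the cysteine and histidine codons, and the bases in lower case between them hold the residues that vary from finger to finger.
ZNF664, chr12:124012157-124012219, plus strand: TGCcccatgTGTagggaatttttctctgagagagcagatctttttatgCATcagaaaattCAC
ZNF580, chr19:55642788-55642850, plus strand: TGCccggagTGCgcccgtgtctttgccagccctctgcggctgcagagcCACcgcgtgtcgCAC
ZNF217, chr20:53582563-53582628, minus strand: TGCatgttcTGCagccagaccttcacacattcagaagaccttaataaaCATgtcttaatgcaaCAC
ZNF212, chr7:149253879-149253941, plus strand: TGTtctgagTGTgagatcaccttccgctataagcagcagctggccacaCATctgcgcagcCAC
ZNF513, chr2:27378750-27378812, minus strand: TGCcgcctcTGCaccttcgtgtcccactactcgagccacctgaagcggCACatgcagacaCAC
ZNF227, chr19:44235184-44235246, plus strand: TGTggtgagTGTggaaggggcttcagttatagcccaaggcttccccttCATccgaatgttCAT
The spacing between capitals was the same in 5 of the 6, while ZNF217 held 1 further codon between its histidines. ZNF664 had 9 fingers by this pattern, ZNF580 had 3, ZNF217 and ZNF513 had 8 each, ZNF212 had 4 and ZNF227 had 18.

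Few expressed ZNF genes changed after MSI1 knockdown. By limma on log2(FPKM + 0.1), 10 of the 157 passed an adjusted p of 0.01, which is 6.37% of them, and 11% of all 15069 tested genes and 15.3% of the 8524 protein-coding genes at 3 FPKM or more did so. Lower in siMSI1 were 8 of the 157 members, beside 704 of the 8524 protein-coding genes at 3 FPKM or more (8.26%). Higher were 2 of the 157, beside 601 of the 8524 (7.05%). The siC and siMSI1 libraries did not overlap for 52 members, or 33.1%, beside 50.3% of protein-coding genes at 3 FPKM or more. In 29 of the 157 siMSI1 was lower without overlap, beside 2161 of the 8524 (25.4%). In 23 of the 157 it was higher without overlap, beside 2124 of the 8524 (24.9%).

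The changes of the members lay on both sides of 0. Their median log2 fold change was 0.02, beside 0.00 over all tested genes, and 82 of the 157 had a positive value. The values ran from −1.22 to 0.64, and the middle 50% lay between −0.16 and 0.17, beside −0.20 and 0.19 for protein-coding genes at 3 FPKM or more. For 155 of the 157 the 95% interval of the change lay within a 2-fold change in either direction, and for 123 it lay within 1.5-fold. The members were expressed at a low level, with a median of 5.30 FPKM against 11.3 FPKM, and 74 of them lay under 5 FPKM. At 3 to 10 FPKM, 5 of 123 members passed the threshold (4.07%), beside 13% of protein-coding genes at that level. At 10 FPKM or more, 5 of 34 did (14.7%), beside 17.2%. Whether these shares differ was not tested.

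**Figure D1:**
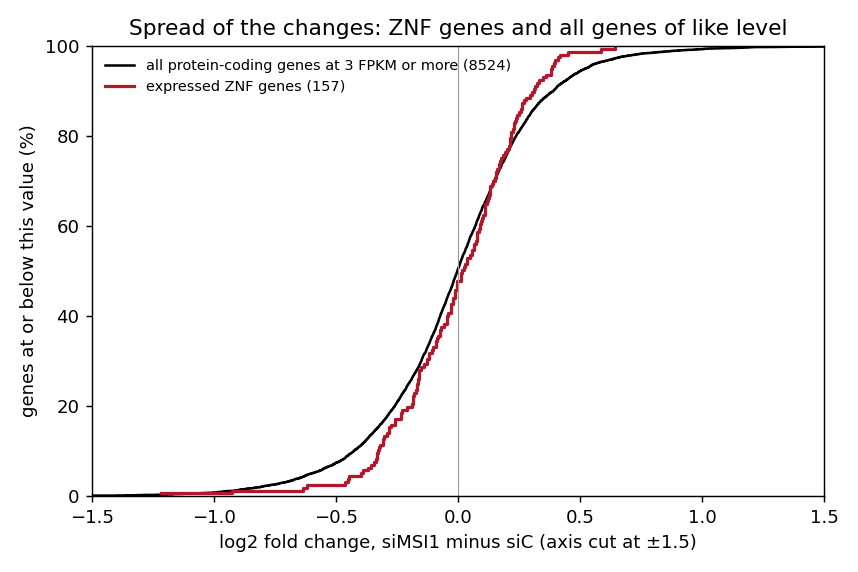
The percentage of genes at or below each log2 fold change (siMSI1 minus siC) is drawn for the 157 expressed ZNF genes and for the 8524 protein-coding genes at 3 FPKM or more. The ZNF line is the steeper of the pair, below the other through most of the negative side and above it at the right, with 1 ZNF gene beyond a 2-fold change.

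**Figure D2:**
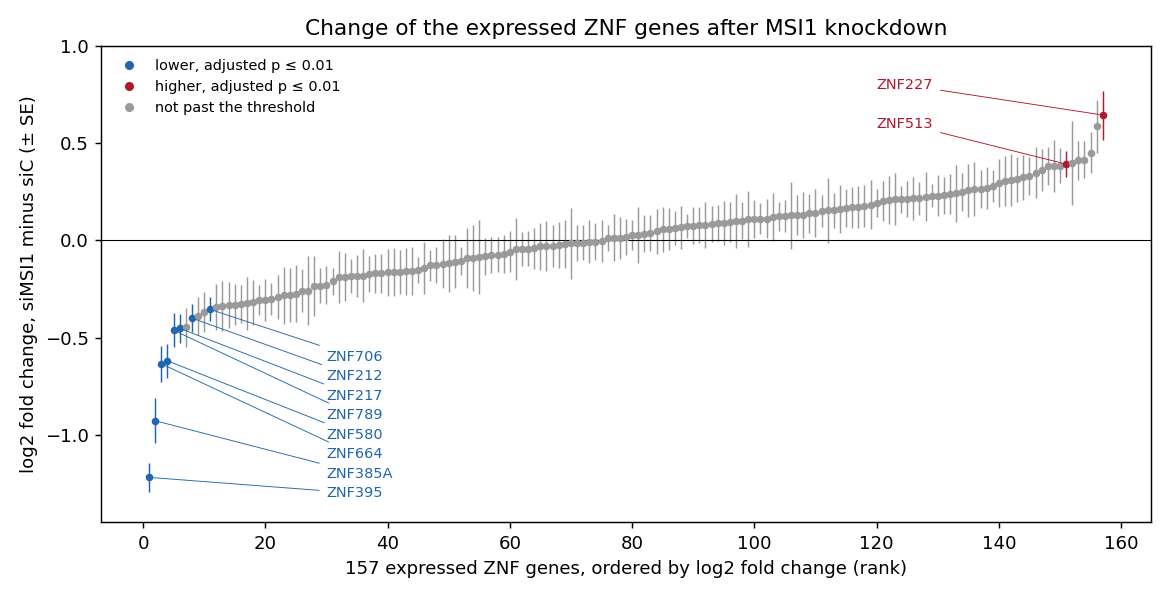
Each point is 1 of the 157 expressed ZNF genes, ordered by its log2 fold change (siMSI1 minus siC), with a bar of 1 SE on either side. Colour marks the 8 genes called lower and the 2 called higher, which are named, and ZNF395 and ZNF385A lie apart from the rest at the lower end.

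The largest fall was in ZNF395, a factor that binds GC-rich promoter elements and is induced by hypoxia. It measured 10.5, 9.78 and 9.87 FPKM in the siC libraries and 4.17, 4.44 and 4.16 FPKM in the siMSI1 libraries. No siMSI1 library came near a siC library, and the siMSI1 mean was 42.4% of the siC mean. The log2 fold change was −1.22 (95% interval −1.39 to −1.04, adjusted p = 0.000206 by limma). With 3 libraries against 3, an exact permutation test (two-sided) of 1 gene cannot go below the p of 0.1 that ZNF395 reached.

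ZNF385A, a zinc finger protein that binds p53 and also RNA, had siC values of 14.7, 12.3 and 13.97 FPKM and siMSI1 values of 6.81, 6.36 and 8.35 FPKM. Its groups lay apart, with means of 13.7 ± 1.21 and 7.17 ± 1.04 FPKM (SD, n = 3), and the log2 fold change was −0.93 (SE 0.12, adjusted p = 0.00155 by limma). ZNF395 and ZNF385A were the members that passed the threshold in all 18 alternative fits.

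ZNF664, a C2H2 protein of little known function whose first finger is shown above, was the most abundant of the changed members. It measured 45.7, 49.2 and 42.1 FPKM in the siC libraries and 29.4, 32.2 and 26.6 FPKM in the siMSI1 libraries. The lowest siC library lay above the highest siMSI1 library, and the mean fell to 64.4% of siC (log2 fold change −0.64, SE 0.09, adjusted p = 0.00272 by limma). ZNF580, a small protein with 3 fingers studied mostly in endothelial cells, had siC values of 10.8, 9.38 and 10.7 FPKM and siMSI1 values of 6.43, 7.14 and 6.44 FPKM. Its groups did not overlap either (log2 fold change −0.62, SE 0.09, adjusted p = 0.00248 by limma).

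ZNF217 is an oncogene that works in corepressor complexes with CoREST and the demethylase LSD1. It measured 21.6, 22.3 and 20.2 FPKM in the siC libraries and 15.9, 16.4 and 14.5 FPKM in the siMSI1 libraries, and the gap between the groups was wider than the spread within either. Its log2 fold change was −0.45 (SE 0.07, adjusted p = 0.00462 by limma). ZNF706, a small protein with 1 finger that in mouse embryonic stem cells promotes the exit from self-renewal, had siC values of 14.6, 14.3 and 14.05 FPKM and siMSI1 values of 11.003, 11.4 and 11.1 FPKM. Within each group it varied little, and the log2 fold change was −0.36 (SE 0.06, adjusted p = 0.00580 by limma).

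The remaining falls were in ZNF789 and ZNF212, both on chromosome 7. ZNF789, whose KRAB box matched all letters searched, measured 4.62, 4.94 and 4.39 FPKM in the siC libraries and 3.37, 3.28 and 3.39 FPKM in the siMSI1 libraries (log2 fold change −0.46, SE 0.09, adjusted p = 0.00842 by limma). ZNF212 had siC values of 9.38, 10.1 and 10.5 FPKM and siMSI1 values of 7.50, 7.53 and 7.59 FPKM (log2 fold change −0.40, SE 0.07, adjusted p = 0.00664 by limma). In both genes the siMSI1 libraries lay closer to each other than the siC libraries did.

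Only ZNF227 and ZNF513 were called higher. ZNF227, a KRAB gene with 18 fingers on chromosome 19, measured 3.74, 4.24 and 3.51 FPKM in the siC libraries and 6.14, 6.88 and 5.18 FPKM in the siMSI1 libraries. All siMSI1 libraries were above all siC libraries, with a mean of 158% of siC and a log2 fold change of 0.64 (SE 0.13, adjusted p = 0.00932 by limma). ZNF513, a regulator studied for its role in the retina, had siC values of 17.4, 18.0 and 18.8 FPKM and siMSI1 values of 22.6, 23.6 and 25.1 FPKM. Its mean was 131% of siC (log2 fold change 0.39, SE 0.07, adjusted p = 0.00578 by limma).

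**Figure D3:**
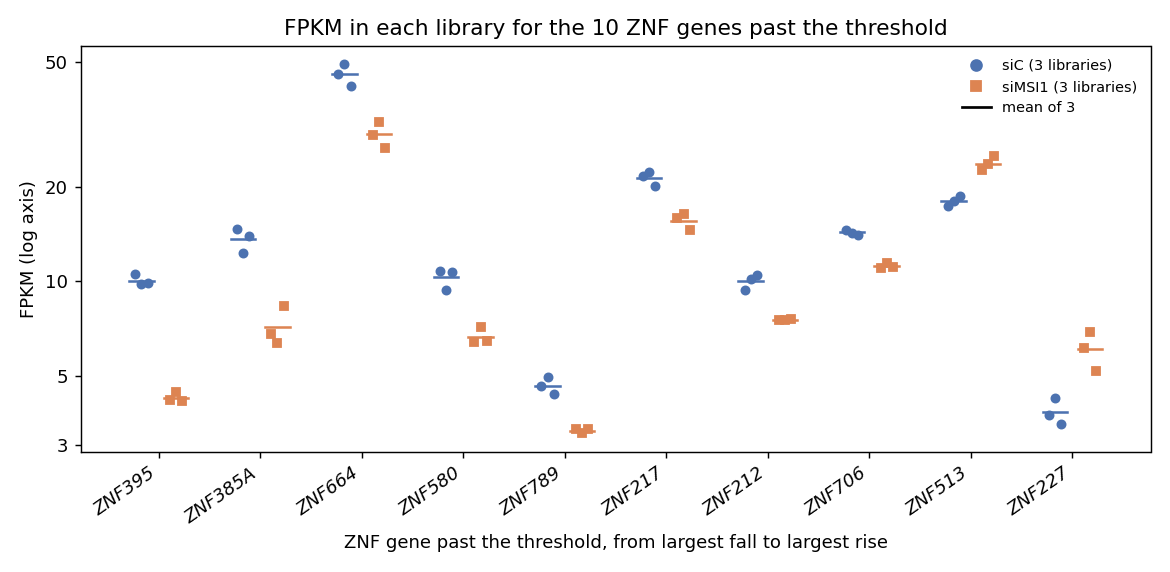
The FPKM (log axis) in each of the 3 siC and 3 siMSI1 libraries is shown for the 10 ZNF genes that passed the threshold, with a line at the mean of each group. In none of the 10 do the groups overlap, and the levels run from about 3 FPKM (ZNF789, ZNF227) to 49.2 FPKM (ZNF664).

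The 8 calls other than ZNF395 and ZNF385A depended on the libraries and settings used. Each of the 8 lost its call in at least 1 fit that left out a library, and 41 members changed sign in at least 1 alternative, though none of the 10 did. Their lowest and highest adjusted p over the alternatives were 6.97e-12 and 0.0155 for ZNF664, 6.3e-06 and 0.0167 for ZNF580, 7.84e-08 and 0.0275 for ZNF217, and 6.34e-07 and 0.0388 for ZNF227. For ZNF706 they were 7.81e-06 and 0.0395, for ZNF212 0.000393 and 0.0272, for ZNF513 2.5e-05 and 0.0362, and for ZNF789 7.36e-05 and 0.0416.

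Some of the changed members overlap other genes, and whether the counting used strand is not given in the sources used here, although the libraries were strand-specific. On its own strand, ZNF580 overlaps ZNF581 (log2 fold change 0.01, adjusted p = 0.918) and CCDC106 (0.34, adjusted p = 0.0903), both of them not past the threshold in limma. ZNF395 overlaps FBXO16 on its own strand, which was at 1.39 FPKM (log2 fold change 0.46, adjusted p = 0.0724). On the opposite strand, ZNF789 overlaps ZNF394, ZNF227 overlaps ZNF235, and ZNF513 overlaps SNX17, which had 4431 to 6173 reads against 618 to 852 for ZNF513 (log2 fold change of SNX17 0.28, adjusted p = 0.0705). ZNF genes also share long stretches of near-identical finger sequence, and how reads with several matches were counted is not given either, so the division of reads between close paralogs is uncertain for all members.

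The 157 members fell into classes by protein sequence, which the rule did not use. A KRAB A box was found in 58 of them, by the letters shown above with up to 2 different, and 29 of the 58 matched every letter. Boxes further from those letters are counted as absent. KRAB members had a median of 11 fingers and lay at a median of 4.35 FPKM, and the 99 others had a median of 7 fingers and lay at a median of 6.02 FPKM. Of the 58 KRAB members, ZNF789 was called lower and ZNF227 higher (3.45% called). Of the 99 others, 7 were called lower and 1 higher (8.08% called). Both shares lay under the 15.3% of protein-coding genes at 3 FPKM or more, and a difference between the classes was not tested. The median log2 fold change was 0.07 in KRAB members, with values from −0.46 to 0.64, and 0.01 in the others, with values from −1.22 to 0.42.

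Chromosome 19 held 46 members, 23 of them with a KRAB box, and their median log2 fold change was 0.10, with 30 of 46 positive. The 111 members on other chromosomes had a median of −0.02, with 52 positive. KRAB members on chromosome 19 had a median of 0.11 (16 of 23 positive), and KRAB members elsewhere a median of −0.02 (15 of 35 positive). Whether these medians differ was not tested. After ZNF227, the largest positive values were those of the KRAB genes ZNF586 (0.59, adjusted p = 0.0179) and ZNF561 (0.45, adjusted p = 0.0180), both on chromosome 19. ZNF586 measured 2.93, 3.87 and 4.18 FPKM in the siC libraries and 5.60, 5.64 and 5.21 FPKM in the siMSI1 libraries, and its groups did not overlap, but it missed the threshold of 0.01 in limma.

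**Figure D4:**
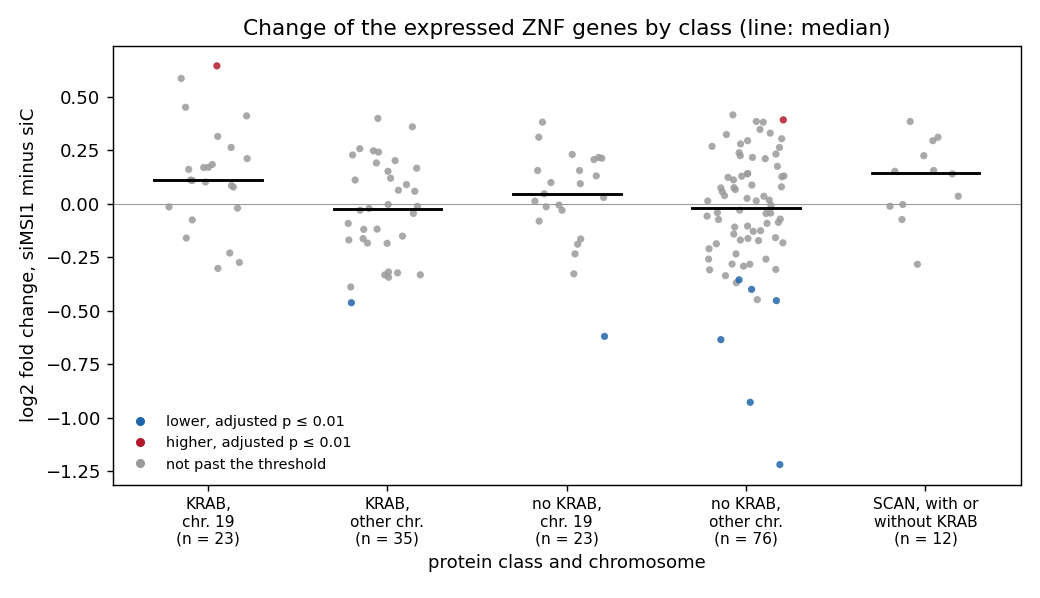
Log2 fold changes (siMSI1 minus siC) of the expressed ZNF genes are grouped by the presence of a KRAB box and by chromosome, and the 12 genes with a SCAN domain are shown once more at the right. Lines mark medians, which lie between −0.02 and 0.15, and points of every group lie on both sides of 0.

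A SCAN domain was found in 12 members, 3 of them with a KRAB box. None of the 12 passed the threshold in limma. An unadjusted p under 0.05 was found in 2 of the 12, beside 46.3% of protein-coding genes at 3 FPKM or more. limma's voom on the recovered reads called 1 of the 12, ZNF496, beside 24.2% of those genes. Without voom, its log2 fold change was 0.38 (adjusted p = 0.0185). By finger number, 4 of the 34 members with 0 to 3 fingers, 5 of the 60 with 4 to 9 and 1 of the 63 with 10 or more were called (11.8%, 8.33% and 1.59%), beside 15.3% of protein-coding genes at 3 FPKM or more. A difference between these classes was not tested.

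Of 9 runs of at least 4 members with gaps of up to 500 kb between them, 8 held values of both signs. On chromosome 7, chr7:149069641-149867479 held 8 members, 7 of them with a KRAB box, with 3 positive and 5 negative values. There ZNF212 was called lower at −0.40 while ZNF282, at a higher level, had 0.25 (adjusted p = 0.106). On chromosome 16, chr16:30378106-31084196 held 9 members with values from −0.39 (ZNF689, adjusted p = 0.0238) to 0.26. None of these 9 was called by limma, beside 15.3% of protein-coding genes at 3 FPKM or more. On chromosome 19, chr19:8509678-9675100 held 7 members, 6 of them positive, from −0.30 (ZNF266, adjusted p = 0.0320) to 0.45 (ZNF561). At chr19:55476617-56160893, 9 members ran from −0.62 (ZNF580) to 0.23, with 6 positive. The run at chr19:58367618-58481230 held 4 members with positive values only, from 0.08 to 0.31 (ZNF446, adjusted p = 0.133). None of these 4 was called by limma, beside the same 15.3%.

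The most abundant members, compared in FPKM and thus per length, hardly moved apart from ZNF664. ZNF428 had the highest level, at 104, 96.8 and 107 FPKM in siC and 86.3, 95.8 and 110 FPKM in siMSI1, and the groups overlapped (log2 fold change −0.08, 95% interval −0.30 to 0.14). ZNF703, a transcriptional corepressor known as an oncogene of luminal breast cancer, had a mean of 61.98 FPKM and a log2 fold change of −0.04 (−0.25 to 0.16). ZNF622, which helps the large ribosomal subunit mature, had a mean of 37.9 FPKM and −0.07 (−0.30 to 0.15). ZNF358 had a mean of 36.8 FPKM and −0.03 (−0.31 to 0.25). A fall or rise of 1.5-fold lay outside each of these intervals.

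Of the 9 members with known work on RNA, ribosomes or the spindle, limma called none. An unadjusted p under 0.05 was found in 3 of the 9 (33.3%), beside the 46.3% of protein-coding genes given above, and voom on the recovered reads also called 0. ZNF207 (BuGZ), which binds spindle microtubules and kinetochores, was at 9.79, 10.6 and 9.99 FPKM in siC and 8.98, 8.47 and 8.78 FPKM in siMSI1. Its groups did not overlap, and the log2 fold change was −0.21 (95% interval −0.37 to −0.05, adjusted p = 0.0615). ZNF326, a splicing factor that links mRNA particles to RNA polymerase, had 0.35 (0.04 to 0.65, adjusted p = 0.0910), with overlap between ZNF326 values of 3.60 to 4.39 FPKM in siC and 4.24 to 5.63 FPKM in siMSI1. ZNF346, a binder of double-stranded RNA, had −0.26 (−0.51 to −0.00, adjusted p = 0.126). ZNF593, another factor of large-subunit export, had 0.21 (−0.10 to 0.52), ZNF598, the ligase that marks collided ribosomes, 0.08 (−0.15 to 0.30), ZNF830, a splicing-associated protein, 0.17 (−0.08 to 0.43), ZNF638, a binder of cytidine-rich RNA and DNA, −0.11 (−0.43 to 0.21) and ZNF106, which binds RNA repeats, 0.02 (−0.19 to 0.23).

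The list of 15 genes with known roles in chromatin complexes or as general activators held 13 members. Of the 13, ZNF217 was the 1 that passed (7.69%), beside 15.3% of protein-coding genes at 3 FPKM or more. ZNF644, a partner of the H3K9 methyltransferases G9a and GLP, had a log2 fold change of −0.09 (95% interval −0.48 to 0.30). Of the members bound to the ZMYND8 complex, ZNF687 had 0.13 (−0.07 to 0.32) and ZNF532 −0.13 (−0.31 to 0.05). ZNF143, which activates promoters of many housekeeping genes, had 0.01 (−0.24 to 0.26), and its paralog ZNF76 had −0.03 (−0.28 to 0.22). ZNF148 and its paralog ZNF281, which bind GC-rich promoters, had −0.23 (−0.59 to 0.12) and 0.13 (−0.11 to 0.37). The other members of the list, ZNF219, ZNF263, ZNF384, ZNF451 and ZNF827, lay between −0.19 and 0.07, and none passed the threshold.

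Of 11 genes with roles in neural development, 5 reached 3 FPKM. ZNF503, a corepressor of striatal development, came closest, at 12.1, 9.84 and 10.1 FPKM in siC and 7.60, 7.36 and 8.43 FPKM in siMSI1. Its groups did not overlap, and its log2 fold change was −0.45 (95% interval −0.68 to −0.21, adjusted p = 0.0160), past the threshold in voom on the recovered reads but not in limma on FPKM. ZNF462, a gene of a neurodevelopmental syndrome, had −0.17 (adjusted p = 0.257), ZNF711, a gene of X-linked intellectual disability, −0.05 (adjusted p = 0.866) and ZNF335, a gene of microcephaly, 0.27 (adjusted p = 0.111). With ZNF703, limma called none of the 5, voom called 1, and 2 of the 5 had an unadjusted p under 0.05, beside 46.3% of protein-coding genes. Each of the 10 KRAB genes listed for their work on retroelements or imprints, among them ZNF91, ZNF93 and ZNF445, lay under 3 FPKM, so none was a member.

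The partners that KRAB proteins act through were expressed throughout. TRIM28 had siC values of 137, 125 and 148 FPKM and siMSI1 values of 130, 128 and 157 FPKM (log2 fold change 0.01, 95% interval −0.22 to 0.25), and SETDB1 was at 11.9 to 12.5 FPKM and 12.5 to 13.5 FPKM (0.08, −0.07 to 0.23). Of 25 genes of this corepressor and heterochromatin list, 2 fell and none rose past the threshold (8%), beside 15.3% of protein-coding genes at 3 FPKM or more. They were UHRF1, which guides DNMT1 to newly replicated DNA, at 36.1, 34.4 and 32.7 FPKM in siC and 21.9, 21.8 and 21.8 FPKM in siMSI1 (log2 fold change −0.65, adjusted p = 0.000571), and the H3K9 methyltransferase SUV39H2, at 10.7, 12.2 and 11.04 FPKM and 7.82, 7.64 and 6.91 FPKM (−0.59, adjusted p = 0.00252). SUV39H2 lost its call when any 1 of the 3 siC libraries was left out. The list's median log2 fold change was −0.02.

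Other families of C2H2 genes (ZBTB, ZFP, ZSCAN and ZKSCAN) had 29 genes at 3 FPKM or more. None of the 29 passed the threshold in limma, 11 (37.9%) had an unadjusted p under 0.05, beside 46.3% of protein-coding genes at that level, and voom on the recovered reads called 2 (6.9%), beside 24.2%. Their values ran from −0.40 to 0.29 with a median of −0.02.

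Libraries of 1 group differed in relation to GC content. The deviation of each member from the mean of its group followed the GC content of its transcript, with r over the 157 members of −0.79 in siC replicate 2, 0.66 in siC replicate 3, −0.67 in siMSI1 replicate 1 and 0.79 in siMSI1 replicate 3. Over 8516 protein-coding genes at 3 FPKM or more, r in the same libraries was −0.71, 0.68, −0.46 and 0.76. The pattern was thus not particular to the members. Deviations from a group mean sum to 0 for each gene, so opposite signs within a group follow from the centring. These values are a description. The log2 fold changes of the members themselves had r = 0.02 with GC content. KRAB members had a median GC content of 45.3% and the others 53.1%, and siMSI1 replicate 3 was the lowest siMSI1 library for 30 of the 58 KRAB members and for 38 of the 99 others. A fit after correcting each library for GC content was added as an alternative chosen after seeing the data.

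**Figure D5:**
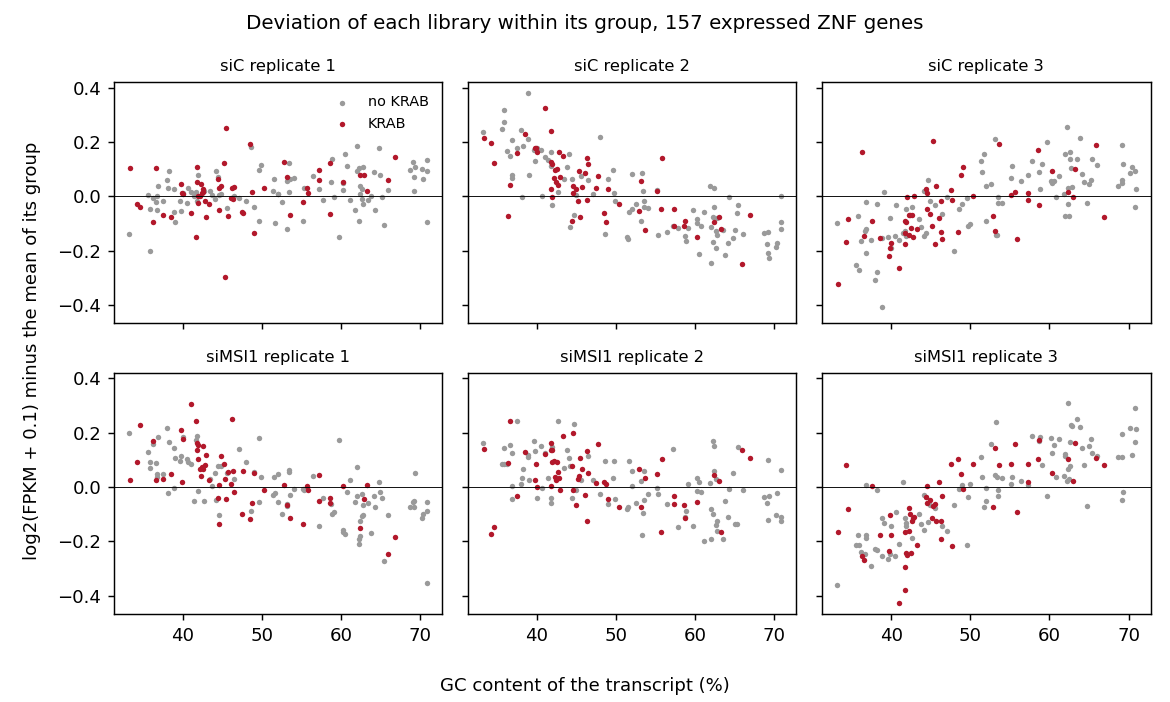
For each library, the log2(FPKM + 0.1) of the 157 expressed ZNF genes minus the mean of its group is plotted against the GC content of the transcript in percent, with KRAB genes in red. The points fall with GC content in siC replicate 2 and siMSI1 replicates 1 and 2, and rise with it in siC replicate 3 and siMSI1 replicate 3.

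With that correction, 23 members passed the threshold (14.6%), 12 lower and 11 higher, beside 31.9% of protein-coding genes at 3 FPKM or more. The 23 included 9 of the 10, all but ZNF706. With voom on the recovered reads, 15 members passed (9.55%), beside 24.2%, and with an adjusted p of 0.05 26 did (16.6%), beside 32.2%. Without a filter on low genes, or without trend and robust moderation, the same 3 members, ZNF395, ZNF385A and ZNF580, passed (1.91%), beside 7.37% and 6.64% respectively. The number of changed members thus moved with the setting, and in each of these 5 settings the members' share was the smaller one. The difference between the shares was not tested.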

How the data were processed

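The mRNA-seq of 6 KNS42 libraries (siC and siMSI1, n = 3 each) was used. Groups and replicate numbers were taken from the sample labels. The authors clipped adapters with cutadapt 1.14, aligned the reads to hg38 (GRCh38) with HISAT2 2.1.0, counted reads per gene with featureCounts 1.5.3 (Ensembl annotation) and deposited them as FPKM per gene and library. The deposited table also holds the authors' log2 fold changes, p-values and FDR, computed with edgeR 3.18.1, which were not used.

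FPKM times gene length gave whole reads (within 0.01) for 100% of the values. The 15069 genes that averaged 0.5 FPKM or more were fitted as log2(FPKM + 0.1) with limma 3.58.1 in R 4.3.3 (lmFit, eBayes with trend and robust, no block), with Benjamini-Hochberg adjustment over these genes. Fold changes on this scale understate those of low genes. The threshold was an adjusted p of 0.01. The replicates of a group differed by more than counting noise (chi-square per degree of freedom 3.55 to 11.2), so none was counted as a duplicate.

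Positions, transcript GC content and coding sequences came from GENCODE 44 on GRCh38, where all 157 members were found. Classes were read from the translated coding sequences there, since protein sequences of RefSeq, named in the plan, were not used here. KRAB needed at most 2 of 9 letters different, SCAN (LLVLEQFL) at most 2 of 8. A finger was C, 2 to 4 residues, C, 12 residues, H, 3 to 5 residues and H. The members and lists were chosen with earlier results of these data known. The genes named are MSI1, up to 12 changed members in each direction, the 5 with the highest FPKM, members of the role lists, TRIM28, SETDB1 and changed genes of their list, and those nearest the FPKM limit. ZNF586, ZNF561, ZNF496, ZNF689, ZNF266, ZNF282, ZNF436 and ZNF446, and overlapping genes, were named after their values were seen.

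Alternatives were 1 or 0.01 as the added value, no filter, a mean FPKM of at least 1, median centring, quantile normalization, plain moderation, an adjusted p of 0.05, members at 1 or 5 FPKM, a replicate block, voom on the recovered reads, each library left out, and, chosen after seeing the data, a GC correction of each library. Other steps ran in Python 3.11.15 (pandas 2.3.3, numpy 2.4.6 and SciPy 1.17.1), and figures were drawn with matplotlib 3.10.9.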

Additional observations from a re-analysis of the deposited data

How the results depend on the processing

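The number of changed ZNF genes (10, with 8 lower and 2 higher, 2 with and 8 without a KRAB box) was the same set of 10 genes with 1 or 0.01 added, a mean FPKM of at least 1, median centring and quantile normalization. Without a filter or with plain moderation it was 3 (3 lower, 0 higher, 0 with and 3 without a KRAB box), and why the number fell was not tested. At an adjusted p of 0.05 it was 26 (14 lower, 12 higher, 9 with and 17 without a KRAB box). voom on the recovered reads gave 15, with 6 higher and 4 with a KRAB box. The GC correction chosen after seeing the data gave 23, with 11 higher, 9 with and 14 without a KRAB box. With members taken at 5 FPKM (83 genes), 1 was higher. Leaving out 1 library gave 2 to 10 changed, 2 to 8 lower, 0 to 2 higher, 0 to 2 with and 2 to 8 without a KRAB box. It was 2 without siC replicate 1, 3 without siC replicate 2, 3 without siC replicate 3, 2 without siMSI1 replicate 1, 4 without siMSI1 replicate 2 and 10 (8 of them shared) without siMSI1 replicate 3. Why the number moved was not tested. The share of all genes called was not counted for the fits without 1 library or for the 5 FPKM limit. These numbers therefore describe the members alone and are not compared with other genes. The median log2 fold change (0.017) was 0.039 with quantile normalization, 0.020 to 0.053 without 1 library and 0.0017 with members taken at 1 FPKM, the lowest value over the alternatives, and that of KRAB members (0.071) was 0.035 to 0.091 without 1 library.

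The replicate numbers were not shown to pair the libraries. Same-numbered libraries had correlations of deviations of −0.07, 0.08 and 0.08 over 15069 genes, and of −0.28, 0.41 and 0.59 over the 157 members, where 1 of 3 siC libraries correlated best with its own number. With the replicate block, 10 members were called, 9 of them shared (7 lower, 3 higher), beside 21.8% of protein-coding genes at 3 FPKM or more. voom with the replicate block called 43 (21 lower, 22 higher, 19 with and 24 without a KRAB box), beside 44.4%, and the GC correction with the replicate block 15 (5 higher, 5 with a KRAB box), beside 26.1%. No result turned its sign among the called members. Over all 157 members, the reads per gene and library ran from 87 to 5644, and the part of depth in the calls of low members was not tested.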

Other observations

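Below the limit of 3 FPKM, 240 of the other 353 protein-coding ZNF genes were tested. Of these, limma called 1 (0.417%), ZNF362, beside 11% of all tested genes. That 11% covers genes of every level, and protein-coding genes at 3 FPKM or more had a share of 15.3%. A share for all tested genes under 3 FPKM was not counted, so the comparison is not at like level. ZNF362 had siC values of 2.95, 3.39 and 3.15 FPKM and siMSI1 values of 2.04, 1.65 and 1.86 FPKM, and its groups did not overlap (log2 fold change −0.75, SE 0.12, adjusted p = 0.00456). In voom on the recovered reads 10 of the 240 passed (4.17%), beside 17.9% of all tested genes, again of every level. The median log2 fold change of the 240 genes by limma on FPKM was −0.01.

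Of 103 ZNF antisense genes and pseudogenes in the table, 21 were tested and 1 was called, the pseudogene ZNF815P. This is 4.76%, beside 11% of all tested genes, which include genes of much higher level. ZNF815P was higher in siMSI1. It measured 1.78, 1.64 and 1.82 FPKM in the siC libraries and 3.04, 3.04 and 2.86 FPKM in the siMSI1 libraries, with no overlap (log2 fold change 0.74, adjusted p = 0.00284 by limma). The reads behind ZNF815P were 62 to 106 per library.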
